A study of Rattus norvegicus with 20 samples.

Results

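Epithelial cells cultured from the esophagus of the rat were compared before and after a passage through skin. The members are the 4 of 20 arrays whose labels name the oesophagus, namely 2 arrays of cells before grafting and 2 of cells recovered after the first transplantation into skin. All groups came from Sprague-Dawley rats at postnatal day 200 that carry the transgene act-EGFP, through which their cells constitutively make a green fluorescent protein, EGFP. Cells were freed with trypsin and EDTA and cultured over a feeder layer, irradiated 3T3-J2 fibroblasts of the mouse. For the second group, cultured cells were placed in the skin of newborn mice, which was grafted onto nude mice, and GFP-positive hair follicles were later dissected from the grafts, dissociated and grown on the same feeder. Cells positive for EGFP were sorted before the RNA was taken, which leaves out mouse feeder and host cells but not rat cells of another kind. The study describes the cultures as grown in duplicate, and how many rats and grafts stand behind each group is not stated. The sample titles carry V before and III after grafting, and the study writes passages in Roman numerals, so that, if these are passages, passage and grafting cannot be told apart. Titles of the other tissues carry V and III (oral mucosa), IV and IV (vagina), IV and III (footpad) and V and I (trachea). If these are passages, differences in response between tissues cannot be told apart from differences in passage either.

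The lining of the esophagus is a stratified squamous epithelium. Its basal cells carry the transcription factor Tp63 and divide, and the cells above them make the keratins Krt4 and Krt13, the pair that marks the moist squamous mucosae and is not made by the epidermis. Skin epithelium makes Krt1 and Krt10 above the basal layer, and hair follicles make a further set of keratins. The comparison asks what cells of esophageal origin express once they have been exposed to a skin that forms hair and are back in culture.

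Values are log2 levels, so that a difference of 1 is 2-fold. Levels are given array by array, and a change is the mean after minus the mean before ± SE of limma's fit to all 20 arrays (n = 2 arrays in each group). Rose and fell are used of genes whose mean changed more than 2-fold with an adjusted p from limma below 0.05. The p-values rest on the spread between duplicate cultures and not on that between animals. Duplicates correlated across probe sets with a Pearson's r of 0.994 before and 0.996 after grafting, and arrays before against after with 0.989 to 0.99. The Euclidean distance over all probe sets was 45.1 between the arrays before, 37.9 between those after and 58.9 to 61.5 across grafting. The table gives no detection call, so levels near the low end, where 40% of probe sets have means under 4.77, may lie at background. With 2 arrays in a group, their number sets the precision.

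Of 14506 gene symbols, each read from 1 probe set, 194 passed the test (1.34%), of which 83 rose (0.572%) and 111 fell (0.765%). Without the limit on fold 2623 symbols had an adjusted p under 0.05 (18.1%), and 4408 an unadjusted p under 0.05 (30.4%). In all 194 the 2 arrays after lay outside the range of the 2 before, a separation that 26% of all symbols showed upward and 29.2% downward. The median change over all symbols was −0.01. The shares of 0.572% and 0.765% are those to set beside the counts of list members given below. By size, 12 symbols fell by more than 4-fold. Those that rose by more than 4-fold were Gnai1 (13.14-fold), Heph (10.73-fold), Cxcl2 (4.069-fold) and Thbs1 (4.009-fold). The split between rises and falls depended on the array before that was kept. Without before replicate 1 it was 117 higher and 88 lower, without before replicate 2 it was 75 and 137, and without after replicate 1 or 2 it was 87 and 98 or 75 and 130. Of the 194 symbols, 139 passed with each of the 4 arrays left out in turn (58 higher, 81 lower). The mean before lay at or under 4.77 in 9 of the rises, and the mean after in 14 of the falls.

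**Figure D1:**
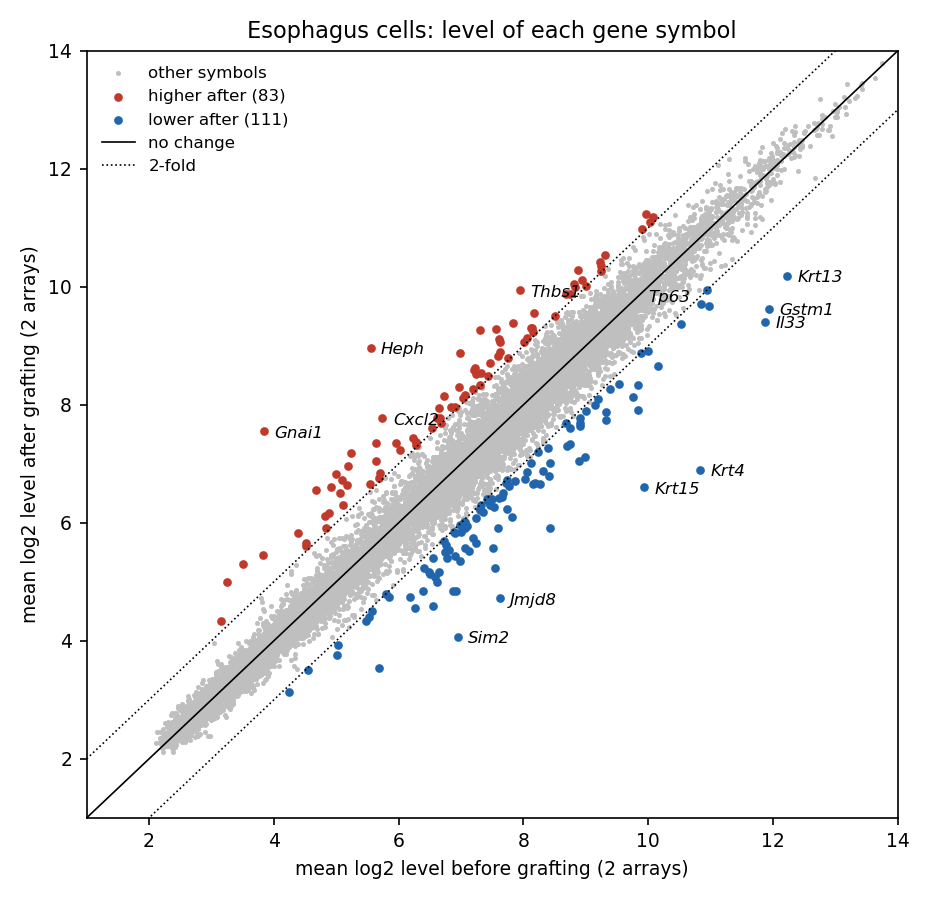
Mean log2 level of each of 14506 gene symbols in esophagus cells before (horizontal) and after grafting (vertical), from 2 arrays each, with symbols that rose in red, that fell in blue and 2-fold lines dotted. Krt4 and Krt15 lie farthest below the line of no change and Gnai1 and Heph farthest above it, while Tp63 lies on it.

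Krt4, a keratin of the squamous mucosa, had the largest fall, and its partner Krt13 fell as well. Krt4 stood at 10.85 and 10.81 before and at 6.63 and 7.18 after, a change of −3.93 ± 0.18 (limma adjusted p 2.26e-08). Both arrays after lay more than 3 log2 units under both arrays before. Krt13 went from 12.28 and 12.18 to 10.12 and 10.24, a change of −2.05 ± 0.17, and remained bright after grafting. Sprr3, a small proline-rich protein of the cornified envelope of mucosa, went from 9.82 and 9.93 to 8.80 and 8.94 (change −1.01 ± 0.15). It lay just past 2-fold, and its call ended without before replicate 2 (−0.95) and without after replicate 1 (−0.94). Of 12 measured genes of mucosal squamous differentiation these 3 fell (25%, against 0.765% of all symbols) and none rose. The other 9 ranged from −0.85 in Evpl, which with Ppl (−0.63) links keratins to the cell edge, to 0.17 in Rhcg, an ammonium transporter. The median of the 12 was −0.44.

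The basal layer was a contrast to the mucosal keratins, apart from a single keratin. Krt15, a keratin of basal cells in the esophagus and of the bulge of the hair follicle, went from 10.01 and 9.87 to 6.59 and 6.61, a change of −3.34 ± 0.14 (limma adjusted p 1.02e-08). Each array after lay more than 3 units under each array before. Tp63, the factor that stratified epithelia depend on, stood at 9.83 and 9.84 before and at 9.85 and 9.85 after (change 0.01 ± 0.08, adjusted p 0.963). Krt14, the main type I keratin of basal cells, stood at 13.14 in both arrays before and at 13.19 and 13.24 after. Col17a1, a collagen of the hemidesmosome, read 10.48 and 10.43 before against 10.48 and 10.46 after. Of 12 measured genes of the basal layer and its anchoring, Krt15 fell and 11 did not pass, and those 11 lay between −0.44 (Bcam) and 0.19 (Itgb1).

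**Figure D2:**
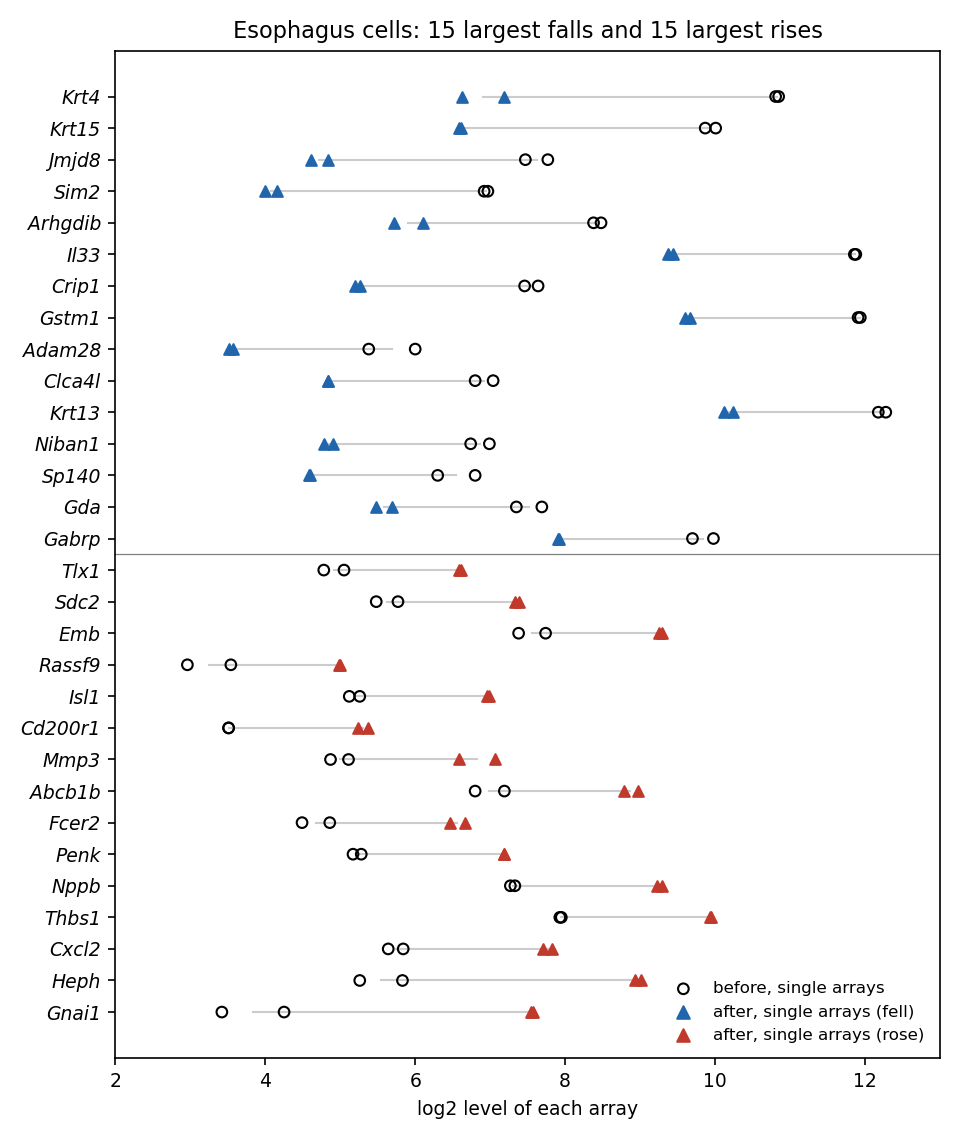
Log2 level in each of the 4 esophagus arrays for the 15 largest falls (top, blue triangles after) and the 15 largest rises (bottom, red triangles after), with open circles before grafting and a gray line between the group means. In all 30 genes the triangles lie on 1 side of the circles, as they do in every symbol that passed. Krt4 at the top read 10.85 and 10.81 before and 6.63 and 7.18 after. Gnai1 at the bottom read 3.42 and 4.25 before and 7.54 and 7.57 after.

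Transcription factors moved singly and in both directions. Sim2, a basic helix-loop-helix factor, went from 6.97 and 6.92 to 3.99 and 4.15, a change of −2.88 ± 0.13. Both arrays after were under 4.77, where a level may lie at background. Tbx3, a T-box factor and repressor, rose from 5.08 and 5.26 to 6.64 in both arrays (1.47 ± 0.12). These were the members that passed among 20 measured factors of foregut and squamous epithelia, whose median was −0.06. Tbx2, a close relative of Tbx3, had a change of 0.85 ± 0.20, and 1.03 without before replicate 2. Sox2 and Pax9, which the squamous esophagus needs to form, stood at −0.63 ± 0.12 and −0.49 ± 0.14, and Foxa1, a pioneer factor of endoderm, at −0.86 ± 0.14.

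Factors of other programs were among the changed genes. Isl1, a LIM homeobox factor, rose from 5.12 and 5.26 to 6.96 and 6.98 (1.78 ± 0.12), and Tlx1, a homeobox factor, from 4.78 and 5.05 to 6.58 and 6.61 (1.68 ± 0.16). Of 22 measured genes of the Hox clusters, which mark position along the body, Hoxc4 fell from 6.86 and 6.44 to 4.88 and 5.46 (−1.48 ± 0.17), and none rose. Hoxc5 stood at −0.82 and Hoxa2 at −0.80, and Hoxa2 at −1.06 without before replicate 2. The median of these 22 was −0.04.

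Elf3, Ehf and Elf5, epithelial factors of the ETS family, fell together. These proteins bind a core of GGAA and control genes of differentiated and secretory epithelia. Elf3 went from 8.96 and 8.83 to 6.81 and 7.29 (−1.84 ± 0.15), Ehf from 9.88 and 9.63 to 8.11 and 8.17 (−1.61 ± 0.17) and Elf5 from 6.59 and 6.36 to 5.17 and 5.16 (−1.31 ± 0.18). They belong to a list of 19 measured genes of simple epithelium, which had a median of −0.48 with 18 of 19 changes below 0. No other member passed and none rose, so that 15.8% of the list fell, against 0.765% of all symbols. The simple keratins Krt8 (−0.80), Krt19 (−0.78), Krt7 (−0.72) and Krt18 (−0.43) had changes below 0, and Krt20 was the member above 0 with 0.35. Krt8 fell by 1.10 when all probe sets of a symbol were averaged. The tight junction genes Cldn4 (−0.69), Cldn7 (−0.57) and Cldn3 (−0.36) lay on the same side.

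Genes of the skin's own programs were asked for next. Of 16 measured genes of epidermal cornification, Cnfn, a protein of the cornified envelope, fell from 9.47 and 9.29 to 8.38 and 8.15 (−1.12 ± 0.13), and none rose. Krt1 (0.18) and Krt10 (0.06), the keratins of the upper epidermis, and Ivl (−0.07), which codes for involucrin, did not pass, and the median was −0.24. Calml3, a calmodulin of stratified epithelia, stood at −0.87, and at −1.02 without before replicate 2, where it passed as well. Of 19 measured hair keratins and shaft genes none passed, with changes from −0.55 to 0.12 and a median of −0.10. The mean lay at or under 4.77 in 8 of the 19 before and in 9 after, where a level may lie at background. Krt31 read 5.39 and 5.21 before against 4.52 and 5.06 after, and Krt33b 5.71 and 6.47 against 5.33 and 5.75.

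Of 21 measured regulators of hair follicle formation, Gata3 fell and none rose, where 0.765% of all symbols fell and 0.572% rose. Gata3, a zinc finger factor of the inner root sheath and of the epidermis, went from 6.85 and 6.70 to 5.43 and 5.38 (−1.37 ± 0.13). Trps1, which codes for another GATA-type factor, stood at 0.97 ± 0.11, just inside 2-fold, and at 1.17 without before replicate 1. Hr, a corepressor needed for hair cycling, stood at 0.75 ± 0.16, and Nfix at −0.76 ± 0.09. The median of the 21 was 0.02. Of 19 measured sebaceous and lipid droplet genes, Fads1, a fatty acid desaturase, fell from 10.05 and 9.96 to 8.93 and 8.90 (−1.09 ± 0.11), with a median of −0.21. Mgst1, which is in the same list, stood at −0.99 ± 0.14, and at −1.13 without before replicate 2 and −1.12 without after replicate 2, where it passed.

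**Figure D3:**
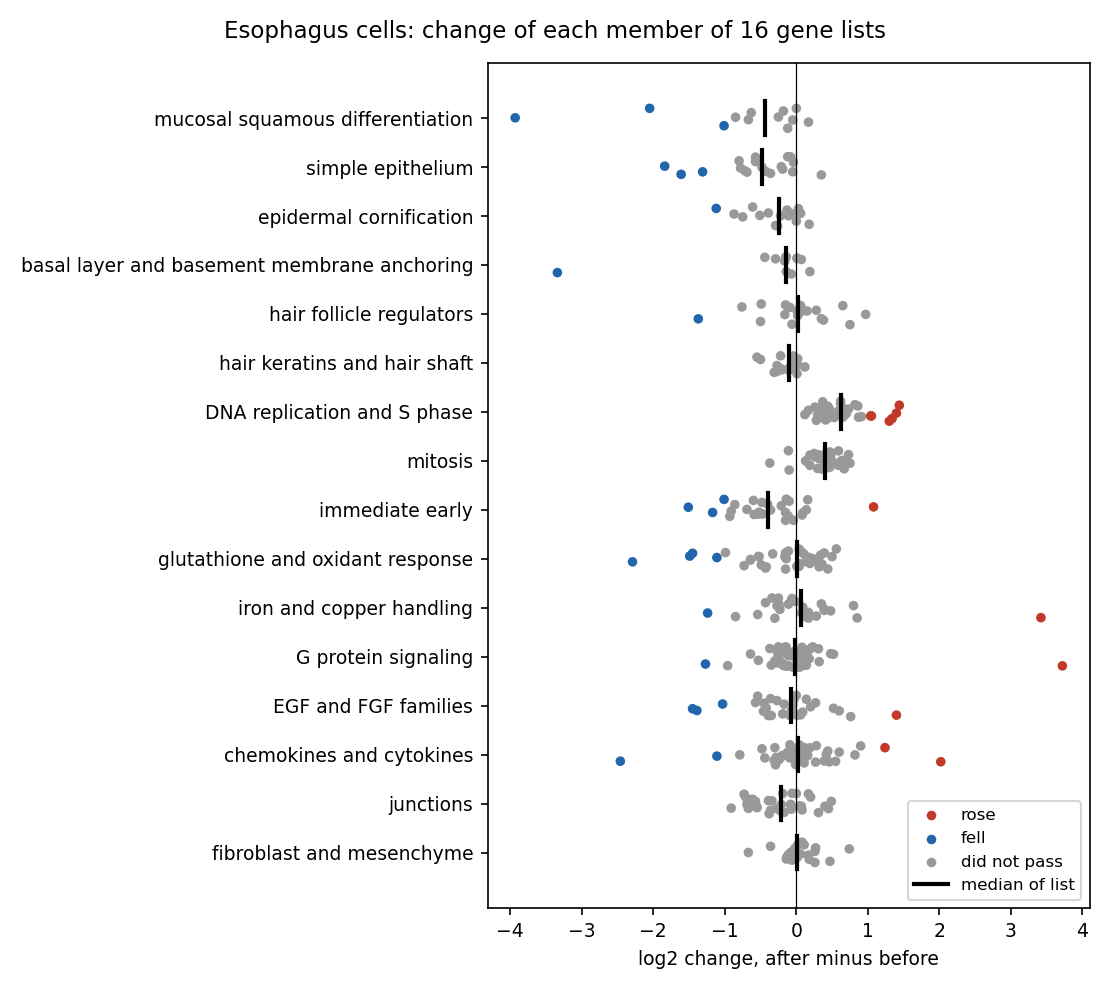
Log2 change (after minus before) of each measured member of 16 gene lists in esophagus cells, with members that rose in red, that fell in blue and that did not pass in gray, and the median of each list as a black bar. All 35 genes of DNA replication lie above 0, 18 of 19 simple epithelium genes lie below it, and Krt4, Krt15, Heph and Gnai1 lie far from the rest of their lists.

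Gnai1 rose most. It codes for an alpha subunit of the inhibitory G proteins, which lower cyclic AMP, and went from 3.42 and 4.25 to 7.54 and 7.57, a change of 3.72 ± 0.20 (limma adjusted p 1.23e-07). Both arrays before were under 4.77, where a level may lie at background, and both after were well above it. In 50 measured genes of G protein signaling the median was −0.02. Adcy8, an adenylyl cyclase, fell from 5.09 and 4.96 to 3.80 and 3.71 (−1.27 ± 0.13), and no further member passed. Rgs2, which speeds the shut-off of G proteins, stood at −0.96 ± 0.20, and passed at −1.0 without before replicate 2 and −1.05 without after replicate 1.

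Heph followed. It codes for hephaestin, a copper-dependent oxidase that helps iron leave the cell, and rose from 5.83 and 5.26 to 9.01 and 8.93 (3.42 ± 0.14, adjusted p 1.02e-08). All 4 arrays were above 4.77 and the groups lay more than 3 units apart. Among 29 measured genes of iron and copper handling, Steap4, a metalloreductase, fell from 6.85 and 6.62 to 5.37 and 5.63 (−1.24 ± 0.13). The other 27 did not pass, the related Steap2 stood at −0.85 and the median was 0.07.

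Further large rises were in secreted and surface proteins of varied kind. Thbs1, a matrix protein that binds cells and growth factors, rose from 7.95 and 7.93 to 9.95 and 9.93 (2.0 ± 0.10), with little spread in either group. Nppb, the precursor of the B-type natriuretic peptide, rose from 7.27 and 7.33 to 9.23 and 9.30, and Penk, the precursor of enkephalins, from 5.28 and 5.17 to 7.19 and 7.18. Abcb1b, an efflux pump, rose from 7.19 and 6.80 to 8.78 and 8.97. The changes of these 3 were 1.96, 1.96 and 1.88. Emb (1.73), Sdc2 (1.73), Cd200r1 (1.79) and Fcer2 (1.89) code for membrane proteins, a chaperone of transporters, a heparan sulfate proteoglycan, an immune receptor and a receptor for IgE. Cd200r1 and Fcer2, with Rassf9 (1.74), started from values of 2.96 to 4.86. Cd200r1, Fcer2 and the falling Adam28 and Sim2 were among 11 of the 194 that were not tested once the 40% of probe sets of lowest mean were left out.

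Falls of similar size were in an equally mixed set. Jmjd8, a protein with a jumonji domain, went from 7.77 and 7.47 to 4.83 and 4.61 (−2.90 ± 0.16). Arhgdib went from 8.48 and 8.38 to 5.72 and 6.10 (−2.51 ± 0.12), and fell in oral mucosa (−3.97) and vagina (−3.63) as well. Crip1, a small LIM domain protein, went from 7.64 and 7.46 to 5.19 and 5.26. Gabrp, a subunit of a chloride channel gated by GABA, went from 9.98 and 9.70 to 7.92 and 7.91. Crip1 and Gabrp changed by −2.32 and −1.92. Clca4l (−2.08), Niban1 (−2.03), Sp140 (−1.96) and Gda (−1.93), which codes for guanine deaminase, were also among the 15 largest falls. Clca4l belongs to a family of close copies, so its reading is uncertain.

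Among chemokines and cytokines 2 genes fell and 2 rose. Il33, an alarmin kept in the nucleus of epithelial cells, fell from 11.88 and 11.86 to 9.44 and 9.38 (−2.46 ± 0.11), and Il18, another cytokine stored in epithelium, from 4.31 and 4.2 to 3.22 and 3.07 (−1.11 ± 0.20), with all 4 arrays under 4.77. The chemokine Cxcl2, which draws neutrophils, rose from 5.84 and 5.64 to 7.82 and 7.71 (2.02 ± 0.22), and its neighbor Cxcl1 from 8.75 and 8.86 to 10.06 and 10.03 (1.24 ± 0.11). Of 43 measured chemokines and cytokines these 2 rose, the 2 interleukins fell and 39 did not pass, with a median of 0.03. That is 4.7% in each direction, where 0.572% of all symbols rose and 0.765% fell. Cxcl1 and Cxcl2 are near copies, so part of either signal may come from the other.

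Cxcl1 and Cxcl2 lie next to each other on chromosome 14 and rose together, and their promoters are shown for that reason. The sequences are those of RefSeq on the rat build GRCr8, from 250 bases before to 50 after the annotated start, both on the minus strand, at chr14:17479272-17479571 for Cxcl1 and chr14:17467206-17467505 for Cxcl2. Capitals mark matches on either strand to GGG, any 2 bases and TTTCC, a form of the binding motif of NF-kappaB, which was chosen after the values were seen.
Cxcl1 promoter: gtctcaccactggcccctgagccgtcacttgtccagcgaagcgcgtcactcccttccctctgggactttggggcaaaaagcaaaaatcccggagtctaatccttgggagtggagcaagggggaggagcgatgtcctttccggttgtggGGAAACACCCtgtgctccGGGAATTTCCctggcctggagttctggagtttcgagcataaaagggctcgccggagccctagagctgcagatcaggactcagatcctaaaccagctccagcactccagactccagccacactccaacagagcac
Cxcl2 promoter: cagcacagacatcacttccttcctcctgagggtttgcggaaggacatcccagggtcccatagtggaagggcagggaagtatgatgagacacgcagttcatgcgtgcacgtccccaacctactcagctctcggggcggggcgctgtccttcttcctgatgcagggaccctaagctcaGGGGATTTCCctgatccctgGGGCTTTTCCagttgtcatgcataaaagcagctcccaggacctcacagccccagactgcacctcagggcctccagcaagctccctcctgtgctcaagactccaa
Each promoter holds 2 matches, which begin 102 and 84 bases before the start in Cxcl1 and 74 and 54 bases before it in Cxcl2. Of 27457 promoters of this length 1.51% hold at least 1 match. Among the genes changed here with a promoter in the table, 3 of 63 that rose and 2 of 79 that fell hold it. A match describes the letters and is no measurement of binding.

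Genes of DNA replication were higher after grafting as a group. Of 35 measured genes of replication and the S phase 6 rose (17.1%, against 0.572% of all symbols) and none fell. All 35 had a change above 0, with a median of 0.62. In all 35 both arrays after lay above both arrays before, a separation that 26% of all symbols showed upward. Cdc6, which loads the replicative helicase, rose from 7.76 and 7.5 to 9.07 and 9.06 (1.44 ± 0.16), and Ccne2, a cyclin of entry into S phase, from 7.30 and 7.14 to 8.61 and 8.63 (1.40 ± 0.22). Gins1, a subunit of the active helicase, rose from 7.19 and 6.74 to 8.35 and 8.24 (1.34 ± 0.13), and Rfc3, a subunit of the clamp loader, from 6.67 and 6.62 to 7.99 and 7.90 (1.30 ± 0.14). Orc6, of the origin recognition complex, and Fen1, a nuclease that trims Okazaki fragments, rose by 1.05 and 1.04. Orc6 was at 1.0 without after replicate 2 and did not pass, and Fen1 was at 1.0 without before replicate 2 and 0.98 without after replicate 1. The clamp Pcna itself stood at 0.87 ± 0.12. In 28 measured genes of mitosis none passed, the median was 0.40 and 25 changes lay above 0, with Spc25 (0.75), Ccnb1 (0.73) and Ttk (0.67) at the upper end. At a fold over 1.5, 19 of the 35 replication genes and 7 of the 28 mitosis genes passed upward, as did 440 of all 14506 symbols. In 20 measured cell cycle inhibitors and p53 targets none passed and the median was −0.07.

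Promoters of replication genes often carry the motif of the E2F factors, and the promoters of Gins1 and Rfc3, both on the plus strand, are shown because they held it. Of the other 4 risen genes Cdc6 and Ccne2 have no entry in the promoter table used. Fen1 and Orc6 were not among the replication genes found to hold the motif. The promoters shown lie at chr3:160184670-160184969 for Gins1 and chr12:5836318-5836617 for Rfc3 (RefSeq, GRCr8), with the same window. Capitals mark matches on either strand to TTTNGCGC, also chosen after the values were seen, and the 2 matches in Gins1 overlap.
Gins1 promoter: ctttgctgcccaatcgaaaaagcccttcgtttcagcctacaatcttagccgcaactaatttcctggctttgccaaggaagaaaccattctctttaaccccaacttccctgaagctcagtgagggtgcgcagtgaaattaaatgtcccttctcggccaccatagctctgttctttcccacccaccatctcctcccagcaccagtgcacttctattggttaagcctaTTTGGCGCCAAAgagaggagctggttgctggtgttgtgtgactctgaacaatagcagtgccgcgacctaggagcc
Rfc3 promoter: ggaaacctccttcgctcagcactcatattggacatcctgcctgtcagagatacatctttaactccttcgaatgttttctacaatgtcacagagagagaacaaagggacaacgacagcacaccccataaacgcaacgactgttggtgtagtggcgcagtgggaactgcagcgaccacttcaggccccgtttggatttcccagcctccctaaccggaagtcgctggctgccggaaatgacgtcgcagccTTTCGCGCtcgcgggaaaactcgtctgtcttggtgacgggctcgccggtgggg
The motif begins 25 and 21 bases before the start in Gins1 and 3 bases before it in Rfc3. It was found in 12 of the 30 replication genes with a promoter in the table (40%) and in 1.37% of all 27457 promoters. Of the 63 risen genes with a promoter there 3 held it, and of the 79 fallen genes 0. Among the 12 replication genes were also Mcm2 (0.26), Mcm5 (0.46), Lig1 (0.17) and Pole (0.41), which did not pass, so that genes with the motif lay at both ends of the list.

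Immediate early genes, which are switched on within minutes of a stimulus, lay lower. Of 27 measured members 3 fell (11.1%, against 0.765% of all symbols) and 1 rose (3.7%, against 0.572%). The median was −0.40 and 22 changes lay below 0. In 19 members both arrays after lay under both before, a separation that 29.2% of all symbols showed downward. Fos went from 8.15 and 8.23 to 6.58 and 6.78 (−1.51 ± 0.16), and Dusp1, a phosphatase that shuts off MAP kinases, from 10.49 and 10.58 to 9.31 and 9.43 (−1.17 ± 0.11). Egr2 was at −1.01 ± 0.17, and its call ended without before replicate 1 (−0.93) or after replicate 1 (−0.86) and after a repeated quantile normalization (−1.0). Ier3, which guards against cell death, rose from 9.79 and 10.01 to 10.98 in both arrays (1.08 ± 0.09), and was at 0.97 without before replicate 1. Egr1 and Nr4a2 stood at −0.93 and −0.91 and passed without after replicate 2, at −1.04 and −1.25.

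Of 39 measured genes of glutathione and the oxidant response 4 fell (10.3%, against 0.765% of all symbols) and none rose. All 4 were glutathione transferases. Gstm1, of the mu class, went from 11.91 and 11.94 to 9.60 and 9.67 (−2.29 ± 0.11), and Gstm2 of the same class from 9.40 and 9.26 to 7.82 and 7.93 (−1.45 ± 0.12). Gsta4 fell from 8.31 and 7.99 to 6.86 and 6.45 (−1.49 ± 0.17) and Gstt2 from 8.14 and 8.10 to 6.91 and 7.10 (−1.11 ± 0.13). The list as a whole was centered on 0, with a median of 0.01 and 20 of 39 changes above 0. Gstm1 and Gstm2 lie next to each other and are near copies, so their readings are not independent.

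Ligands and receptors of growth factors moved in both directions. Of 32 measured genes of the EGF and FGF families Fgf13, a member that stays in the cell, rose from 5.96 and 5.31 to 7.11 and 6.96 (1.40 ± 0.20). The ligand Fgf9 fell from 6.38 and 6.0 to 4.71 and 4.76 (−1.45 ± 0.18) and the receptor Fgfr3 from 8.74 and 8.65 to 7.23 and 7.38 (−1.39 ± 0.10). Erbb3, a receptor of the neuregulins, was at −1.03 ± 0.15, and its call ended without before replicate 1 (−0.87), without after replicate 1 (−0.85) and after repeated quantile normalization (−0.97). The median was −0.08. Of these 32 genes 3.1% rose and 9.4% fell, against 0.572% and 0.765% of all symbols. Of 47 measured genes of the BMP and TGF-beta pathway Fst, which codes for the activin antagonist follistatin, rose from 9.31 and 9.14 to 10.38 and 10.47 (1.20 ± 0.14). The ligand Bmp3 was at −1.04 ± 0.21, at −0.98 without before replicate 1 and at −0.95 without after replicate 1, where its call ended. Fstl1, a relative of Fst, stood at 0.86, and passed at 1.02 without before replicate 2. Of these 47 genes 2.1% rose and 2.1% fell.

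The Wnt and Notch pathways direct hair follicle formation, and their shares of changed genes were near that of all symbols (1.34%). Of 48 measured Wnt ligands, receptors and antagonists Sfrp1, a secreted antagonist, fell from 6.38 and 6.15 to 4.49 and 4.61 (−1.71 ± 0.17), and no other passed. Wnt4 (−0.43) and the target Axin2 (−0.42) were next in size, and the median was −0.05. Of 26 measured Notch genes none passed. The target Nrarp stood at −0.88 ± 0.10, the regulator Dtx4 at −0.85 ± 0.14 and the receptor Notch3 at −0.79 ± 0.10. In each both arrays after lay under both before, as in 29.2% of all symbols. The median of the Notch genes was −0.10.

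The remaining lists held 0 to 3 members that moved in either direction, where 0.572% of all symbols rose and 0.765% fell. Among proteases and inhibitors 4.8% rose and 3.2% fell, and 5.7% of hypoxia, 3.8% of retinoid and 6.1% of interferon genes fell. Of 62 measured proteases and inhibitors Mmp3, a matrix metalloproteinase, rose from 4.87 and 5.11 to 6.58 and 7.06 (1.83 ± 0.21) and Adam28 fell from 6.0 and 5.38 to 3.57 and 3.51 (−2.15 ± 0.18). The inhibitors Serpine2 (1.09) and Cst6 (1.02) rose and Serpinb11 (−1.16) fell. These last calls ended without before replicate 1, at 0.98, 0.85 and −0.84, and those of Serpine2 and Cst6 also without after replicate 2, at 1.0 and 0.99. Of 35 hypoxia and glycolysis genes Aldoc, an aldolase, fell from 8.40 and 8.41 to 6.74 and 6.84 (−1.61 ± 0.11) and Car9, a carbonic anhydrase at the cell surface, from 9.54 and 9.53 to 8.30 and 8.41 (−1.18 ± 0.09), with Ndrg1 at −0.85. Of 26 retinoid genes Rdh12, a retinal reductase, fell from 7.26 and 7.0 to 5.27 and 5.77 (−1.61 ± 0.18). Dhrs3, of the same enzyme family, stood at −0.98, and passed at −1.09 without before replicate 2. Of 33 interferon response genes Samd9l (−1.10) and Oasl (−1.09) fell, and Oasl did not pass without before replicate 1 (−0.84) or after replicate 1 (−0.98). Ifit2 stood at −0.97, and at −1.0 without after replicate 2, where it passed. Of 27 genes of endoplasmic reticulum and amino acid stress Nupr1 rose by 1.12, and was at 0.99 without before replicate 2. Ddit3 stood at 0.96, and at 1.01 without before replicate 1, where it passed, and the median was 0.28.

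In 5 further lists no member passed, where 1.34% of all symbols did. Of 33 junction genes Tjp1 (−0.91), a scaffold of tight junctions, Cdh1 (−0.73), the cadherin of epithelia, and Tjp3 (−0.71) lay farthest from 0, with a median of −0.21. Of 19 cholesterol synthesis genes Srebf2, their master regulator, stood at −0.70, Sc5d at −0.56 and Lss at −0.46, with a median of −0.23. Of 27 integrins and laminins Itga1 stood at −0.78, Itgb5 at −0.57 and Lamb2 at −0.56. Of 21 prostaglandin genes Ptgs2, the inducible cyclooxygenase, stood at 0.54, Ptger4 at −0.50 and Ptges at −0.45. Of 16 antigen presentation genes RT1-DMa stood at −0.63, Psmb10 at 0.45 and RT1-DMb at −0.39.

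Markers of other cell types that the sort could have kept did not pass, apart from Bmp3 in the airway list. Of 24 measured fibroblast and mesenchyme genes none passed, the median was 0.02, and their summed linear level was 4379 to 4570 before and 4013 to 4019 after. Vim, the vimentin gene, stood at 0.74 ± 0.15, Col1a1 at −0.14 and Sparc at −0.67. None of 14 muscle, 11 endothelium, 12 leukocyte, 8 melanocyte and 8 Merkel cell and nerve genes passed, and the leukocyte sum was 691 to 753 before and 598 to 616 after. Ptprc, the general leukocyte marker, read 3.42 and 3.40 before against 3.37 and 3.49 after, and Cd3e, of T cells, 3.50 and 3.76 against 3.17 and 3.45. Of 12 airway genes Bmp3 alone passed, and Scgb1a1, of club cells, stood at −0.33. Before grafting Bmp3 averaged 8.24 in esophagus and 7.39 in trachea, so its level does not single out airway cells. In a bulk sample fewer cells of a type and less RNA per cell cannot be told apart.

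How far these changes were shared with the other 4 tissues was counted next, in calls from the same fit on arrays that do not overlap. Of the 111 symbols that fell in esophagus, 58 also fell in oral mucosa (52.3% of the esophagus list, 13% of the oral mucosa list), where 3.07% of all symbols fell, and 6 rose there. In vagina 59 also fell (53.2% and 16.9%), against 2.41% of all symbols, and 0 rose. In footpad 7 also fell (6.3% and 1.2%) against 4.02% of all, while 40 rose there against 5.25%. In trachea 5 also fell (4.5% and 3.5%) against 0.972% of all, while 10 rose there against 0.627%. Of the 83 that rose, 30 also rose in vagina (36.1% and 33.3%) against 0.62% of all symbols, and 4 fell there. In oral mucosa 21 also rose (25.3% and 7.6%) against 1.91%, and 2 fell. In footpad 18 also rose (21.7% and 2.4%) while 23 fell, and in trachea 12 also rose (14.5% and 13.2%) while 10 fell. No symbol passed in the same direction in all 5 tissues. Krt15 fell in 3 other tissues, and Nppb, Ndufb6, Clip4, Gtf2h5 and Polr1h rose in 3. In no other tissue did 28 of the rises and 21 of the falls pass in the same direction.

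The response of the esophagus minus the mean response of the other 4 tissues was tested as a contrast of its own. It passed for 287 symbols (1.98%), of which 155 were higher (1.07%) and 132 lower (0.91%). With array medians centered the split was 182 and 113. Of the 83 risen genes 42 passed upward, and of the 111 fallen genes 57 passed downward. Sim2 had the largest difference downward, −2.99 ± 0.15, with changes of 0.56 in oral mucosa, 0.12 in vagina, −0.21 in footpad and −0.02 in trachea. Jmjd8 (−2.47 ± 0.17) passed in none of the other 4, and Crip1 (−2.65 ± 0.17) rose in trachea (1.44) and did not pass in the other 3. Krt15 differed by −2.75 ± 0.15, with changes of −3.57 in vagina, −1.12 in oral mucosa, −1.08 in trachea and 3.40 in footpad. Gata3 differed by −2.38 ± 0.14, having risen by 1.48 in oral mucosa and 1.67 in footpad, with 0.82 in vagina and 0.07 in trachea. Krt4 differed by −2.03 ± 0.20. It fell by 6.63 in oral mucosa and 1.47 in vagina, and stood at −0.26 in footpad and 0.77 in trachea.

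The upward differences were led by Gnai1 with 3.92 ± 0.23, which rose in oral mucosa (1.91), stood at 0.53 in vagina and fell in footpad (−1.94) and trachea (−1.31). Cxcl2 differed by 3.18 ± 0.25, with changes below 0 in all 4 other tissues, from −0.25 in trachea to −2.75 in footpad. Heph differed by 2.61 ± 0.16 but rose also in vagina (2.32) and trachea (2.13). Tbx3 (1.20 ± 0.13) and Isl1 (2.07 ± 0.14) passed upward as well. In some genes the difference came from the other tissues. Akap12, a scaffold of protein kinase A, stood at 0.22 in esophagus and at −2.49, −3.86, −0.43 and −2.18 in oral mucosa, vagina, footpad and trachea. Vcan, which codes for the matrix proteoglycan versican, stood at 0.93 and there at −0.02, −1.91, −3.45 and −1.53. Among fibroblast and mesenchyme genes 7 of 24 passed upward in this contrast and none downward, with a median difference of 0.49 against −0.02 over all symbols. The list had 11 members that fell in vagina, 13 in footpad and 10 in trachea, and none in esophagus or in oral mucosa, where 5 rose and the median change was 0.29. Of all symbols 2.41% fell in vagina, 4.02% in footpad and 0.972% in trachea, and 1.91% rose in oral mucosa. In the contrast 1.07% of all symbols passed upward.

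**Figure D4:**
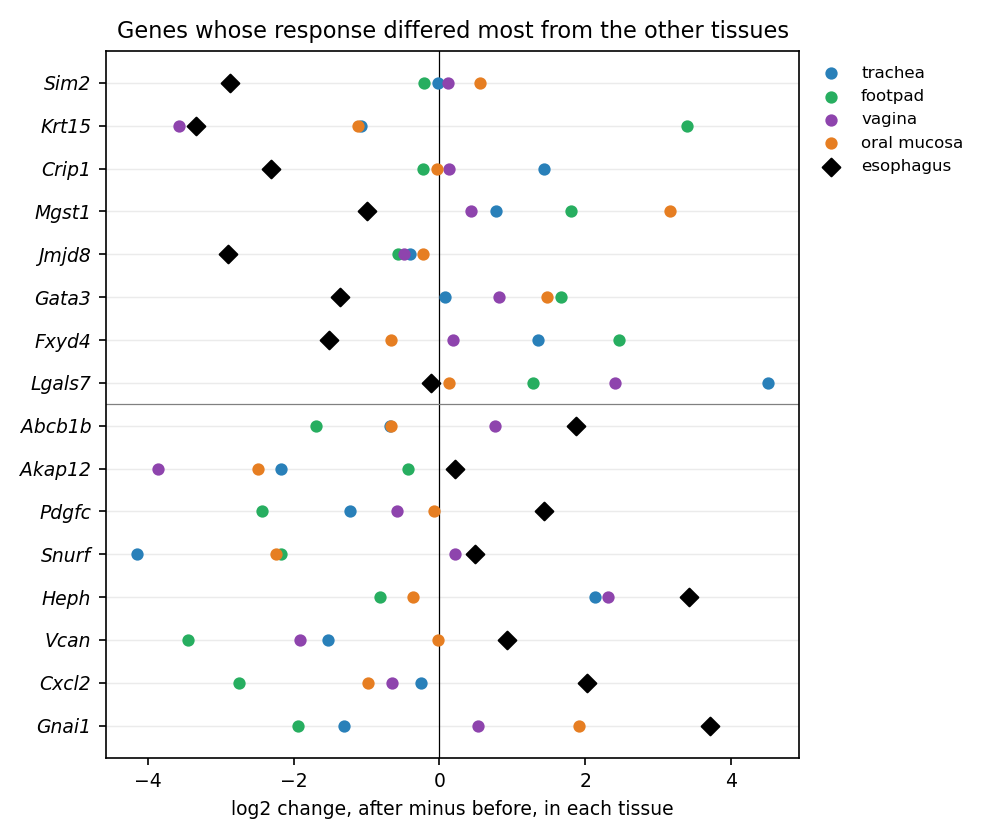
Log2 change (after minus before) in esophagus (black diamonds) and in the 4 other tissues (colored circles) for the 8 largest downward (top) and 8 largest upward (bottom) differences between esophagus and the mean of the other tissues. Sim2 lies at −2.88 in esophagus and between −0.21 and 0.56 elsewhere, while the diamond of Lgals7 lies at −0.12 and its circles reach 4.51.

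The replication genes moved in opposite ways among the tissues. Of 35 members 26 rose in oral mucosa (median 1.23) and 2 in vagina (median 0.60), while 13 fell in footpad (median −0.64) and 8 in trachea (median −0.69). Of all symbols 1.91% rose in oral mucosa and 0.62% in vagina, while 4.02% fell in footpad and 0.972% in trachea. The esophagus, with 6 risen and a median of 0.62, lay near vagina. Against the mean of the other 4 tissues 5 members passed upward, Cdc6 with 1.44 ± 0.18, Ccne2 with 1.41 ± 0.24 and Fen1 with 1.02 ± 0.16 among them, and none downward, with a median difference of 0.44. Among immediate early genes 6 of 27 passed downward in this contrast, with a median difference of −0.56, and 12 members had risen in footpad. Of all symbols 1.07% passed upward and 0.91% downward in the contrast, and 5.25% rose in footpad.

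**Figure D5:**
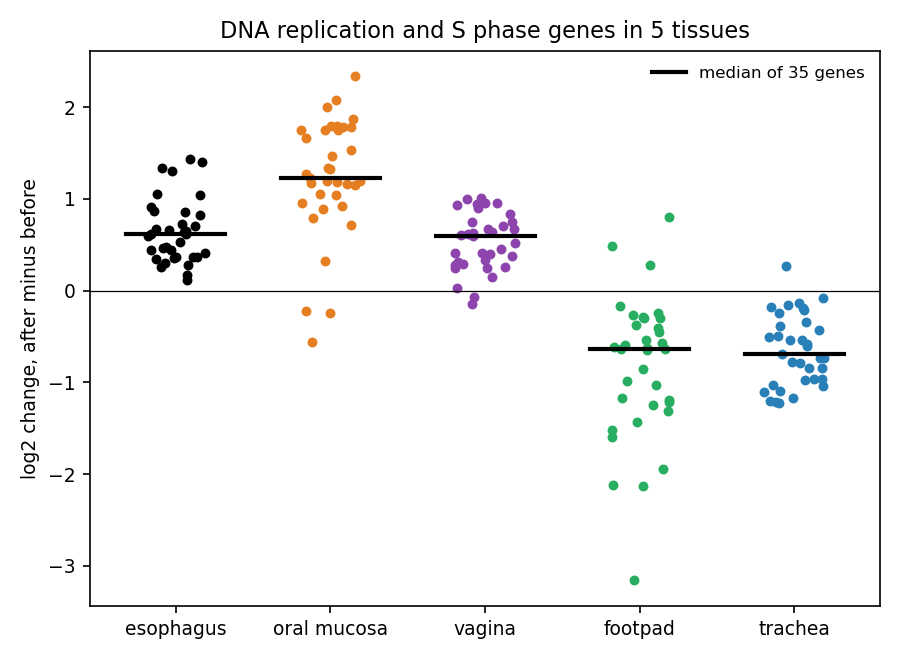
Log2 change (after minus before) of 35 genes of DNA replication and the S phase in each of 5 tissues, 1 point per gene, with the median as a black bar. All 35 points lie above 0 in esophagus (median 0.62), and the medians are 1.23 in oral mucosa, 0.60 in vagina, −0.64 in footpad and −0.69 in trachea.

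Changed genes that are neighbors on a chromosome were looked up by the order of genes in RefSeq. Of 193 changed symbols that could be placed, 9 pairs of next neighbors changed in the same direction and 3 pairs in opposite directions. Falling pairs were Krt13 and Krt15, Ehf and Elf5, Gstm2 and Gstm1, Sp140 and Sp100 (−1.14), and the serine proteases Tmprss11f (−1.07) and Tmprss11g (−1.04). Rising pairs were Cxcl2 and Cxcl1, Isl1 and Emb, Ccdc80 (1.29) and Cd200r1, and Raet1e (1.15) and Raet1l (1.44). Most of these pairs are copies within a gene family, where shared probes may couple the readings, and Isl1 with Emb and Ccdc80 with Cd200r1 are not. The other probe set of Raet1l gave 0.70 and did not pass. The median change per chromosome lay between −0.05 and 0.03 over 21 chromosomes with at least 100 symbols.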

How the data were processed

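Cultured esophagus cells before and after grafting were measured on Affymetrix Rat Gene ST arrays from 100 ng of total RNA each. The deposited values are log2 levels that the authors made with RMA in Affymetrix Expression Console, which corrects background, quantile-normalizes the arrays and summarizes probes by median polish. Neither their versions nor the annotation build are stated, nor which arrays were normalized as 1 set. Values run from 1.52 to 14 over 29215 probe sets, and medians of the esophagus arrays from 5.37 to 5.44. Of the probe sets 15310 had 1 gene symbol, 323 several and 13582 were unnamed here. For each of 14506 symbols the probe set of highest mean over 20 arrays was used, and 527 symbols had more than 1.

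All 20 arrays were fitted as 10 groups of 2 with limma 3.58.1 (lmFit, eBayes) and statmod 1.5.0 in R 4.3.3, with 10 residual and 3.64 prior degrees of freedom. Benjamini-Hochberg adjustment ran over all probe sets, of which 314 passed, 200 of them with 1 symbol. The procedure was tested on simulated data. Alternatives changed scaling, the filter on dim probe sets, the prior, array weights, thresholds, probe set choice and the arrays used. Replicate numbers were not used to pair the samples in the main fit, and the labels do not say whether same-numbered arrays belong together.

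The members, the lists and the tests were chosen with earlier results of these data known. Of 1119 listed genes in 38 lists 950 were measured. By rule, the genes named were the 15 largest rises and falls that passed without overlap, every list member that passed, up to 3 members of largest change per list, the cell type markers, and the 8 largest differences each way from the other tissues, of which some that did not pass stand only in the counts of their list. Genes named beyond the rule were chosen after their values were seen. Promoters were matched by symbol, which gave 11968 of the symbols tested.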

Additional observations from a re-analysis of the deposited data

Results flagged for a closer look

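For 16 genes the response of the esophagus differed most from the mean response of the other 4 tissues in a test of that difference (limma, adjusted p under 0.05 and over 2-fold, 8 in each direction). Below the other tissues were Sim2 (−2.99), Krt15 (−2.75), Crip1 (−2.65), Mgst1 (−2.54), Jmjd8 (−2.47), Gata3 (−2.38), Fxyd4 (−2.34) and Lgals7 (−2.20). Mgst1, a membrane-bound glutathione transferase, did not pass within esophagus (−0.99) and stood at 3.16 in oral mucosa, 1.81 in footpad, 0.78 in trachea and 0.44 in vagina. Fxyd4, a regulator of the sodium pump, fell by 1.51 in esophagus and stood at 2.47 in footpad and 1.35 in trachea. Lgals7, which codes for galectin 7 of stratified epithelia, read 9.92 and 9.97 before and 9.79 and 9.85 after in esophagus, while its change was 4.51 in trachea and 2.41 in vagina.

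Above the other tissues were Gnai1 (3.92), Cxcl2 (3.18), Vcan (2.65), Heph (2.61), Snurf (2.58), Pdgfc (2.51), Akap12 (2.46) and Abcb1b (2.45). Snurf, from an imprinted locus, stood at 0.49 ± 0.20 in esophagus without passing and at −4.15 in trachea, −2.25 in oral mucosa and −2.17 in footpad. Pdgfc, a growth factor of the PDGF family, rose from 6.71 and 6.73 to 8.13 and 8.17 (1.43 ± 0.18) and stood at −2.44 in footpad.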

How the results depend on the processing

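Over the alternatives run with a fold over 2, 183 to 212 symbols passed after versus before, and 264 to 311 in the difference from the other 4 tissues. With a fold over 1.5 in place of 2 these counts became 911 (440 higher, 471 lower) and 1078 (591 higher, 487 lower). With 1 array left out they ranged from 185 to 212 (75 to 117 higher, 88 to 137 lower) and from 284 to 311 (143 to 191 higher, 112 to 168 lower). With the replicate number as a replicate block within each tissue 194 symbols passed (83 higher, 111 lower), all 194 shared with the result without it, and 288 in the difference, and the correlation of same-numbered arrays' deviations was 0.0142 in esophagus and −0.15 to 0.0277 in the other tissues. No change that passed turned its sign in any setting. Of the 74 genes chosen by the naming rule that passed, 55 passed in every setting. Adam28, Adcy8, Cd200r1, Fcer2, Fgf13, Hoxc4 and Sim2 were not tested without the 40% of probe sets of lowest mean. Among the smaller results, 3487 values under an alternative kept their call or count, 48 newly passed, 23 no longer passed and 67 counts of list members moved by over 1.5 times. Probe sets of dim signal, with no detection call, limit the size of changes from or to low levels.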

Other observations

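Genes outside the lists were also read, and the groups named here were chosen after their values were seen, so that their counts are descriptions. Of 144 symbols of the respiratory chain and the mitochondrial ribosome 4 rose (2.8%, against 0.572% of all symbols) and none fell. The median was 0.26 and 125 changes lay above 0. Ndufb6, a subunit of complex I, rose from 8.02 and 7.65 to 9.37 and 9.42 (1.56 ± 0.14), and Mrps17 rose by 1.08. Mrps14 (1.08) and Ndufc2 (1.02) did not pass without before replicate 2 (0.95 and 0.91), nor Mrps14 without after replicate 2 (0.98) or Ndufc2 after a repeated quantile normalization (0.96). The median of the same genes was 0.31 in vagina, 0.27 in trachea, 0.18 in footpad and −0.09 in oral mucosa, and none passed in the difference between esophagus and the other tissues.

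Of 28 receptors and adaptors of insulin and other receptor tyrosine kinases 5 fell (17.9%, against 0.765% of all symbols) and none rose. The median was −0.20. Grb14, an adaptor that restrains the insulin receptor, went from 7.85 and 7.79 to 5.96 and 6.25 (−1.72 ± 0.11), and Irs1, a docking protein of that receptor, from 6.82 and 6.81 to 5.48 and 5.61 (−1.27 ± 0.13). Insr itself (−1.07), Pik3c2b (−1.02) and Gab1 (−1.01) did not pass without before replicate 1, at −0.93, −0.99 and −0.95. Gab1 was also at −0.89 without after replicate 1, repeated quantile normalization gave −0.96 for Gab1 and −0.97 for Pik3c2b, neither of which passed, and the other probe set of Insr gave −0.76.

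Genes of the replication machinery outside the list also rose, such as Gmnn (1.13), the inhibitor of origin licensing, Pclaf (1.17), a partner of PCNA, and Exo1 (1.08), an exonuclease of mismatch repair. Ctsz, a lysosomal protease, fell from 9.03 and 8.93 to 7.07 and 7.17, a change of −1.85 ± 0.07. Has2, a hyaluronan synthase, rose by 1.21 and stood at −4.18 in footpad. Dbp, a clock output factor, and Bhlhe40, a clock repressor, fell by 1.13 and 1.31.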
